A study of Mus musculus with 12 samples.

Results

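The expressed zinc finger protein (Zfp) genes of mouse macrophages were compared between hepcidin and PBS. Members were chosen by name and by measured level: a symbol of Zfp followed by digits, without Zfp36, and a mean log2 expression value over the 6 PBS arrays of at least 6.5. This gave 109 of 340 Zfp genes on the array, out of 24675 genes tested, and the other 231 Zfp genes lay under that value. The macrophages were primary cells grown from the marrow of wild-type mice of 8 to 10 weeks, cultured for 7 days with L cell-conditioned medium as the source of M-CSF. They were moved to DMEM alone for 1 h before hepcidin, the peptide hormone of iron balance, was added. The 12 arrays form 4 groups of 3, namely hepcidin at 1 h, PBS at 1 h, hepcidin at 3 h and PBS at 3 h, and no genetic change is named in any of them. The labels give the dose as 1 µg/ml in one protocol and 10 µg/ml in another, the second of which speaks of 1 h only, so the dose is not settled. Whether the 3 samples of a group are separate cultures or animals is not stated, so each p-value reflects the scatter of these arrays, and part or all of it may be technical.

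Most Zfp genes encode proteins with rows of C2H2 fingers, short loops folded around a zinc ion that read DNA. The largest class also carries a KRAB domain, which recruits the corepressor TRIM28 and with it the histone methyltransferase SETDB1 and HP1 proteins, and is best known for silencing transposable elements. Genes of this class arose by repeated duplication and stand in clusters of close relatives. Other Zfp genes carry the same prefix but have unrelated roles, in splicing, ribosome quality control, SUMO transfer or the cell cycle.

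The promoters of 4 genes are shown as examples, and no call below rests on a promoter. Zfp395 and Zfp704, whose falls at 3 h held whichever array was left out, are not among the 4. Zfp263 was the member that rose, Zfp931 and Zfp935 fell at 3 h, and Zfp970 is a relative of Zfp931 that lay under the level required and fell at 1 h. Each runs from 250 bases before to 50 bases after the gene's start as RefSeq places it on GRCm38.p6, 5′ to 3′ on the gene's strand. They lie at chr16:3743849-3744148 on the plus strand for Zfp263, chr2:178078376-178078675 on the minus strand for Zfp931, chr2:177464492-177464791 on the plus strand for Zfp970 and chr13:62466763-62467062 on the minus strand for Zfp935. Capitals mark the octamer ATGCAAAT in Zfp263 and, in the other 3, the longest run of bases that all 3 share.
Zfp263: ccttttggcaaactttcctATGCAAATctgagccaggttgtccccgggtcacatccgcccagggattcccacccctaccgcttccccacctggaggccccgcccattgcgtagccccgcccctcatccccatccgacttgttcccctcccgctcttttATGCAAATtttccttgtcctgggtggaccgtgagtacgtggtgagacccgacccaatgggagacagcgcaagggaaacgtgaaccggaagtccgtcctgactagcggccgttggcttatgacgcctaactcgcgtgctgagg
Zfp931: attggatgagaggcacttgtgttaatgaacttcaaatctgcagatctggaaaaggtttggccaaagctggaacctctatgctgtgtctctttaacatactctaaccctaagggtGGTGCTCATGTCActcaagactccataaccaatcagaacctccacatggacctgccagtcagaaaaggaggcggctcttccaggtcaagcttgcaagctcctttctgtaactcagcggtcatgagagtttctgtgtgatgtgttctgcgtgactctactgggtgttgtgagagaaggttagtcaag
Zfp970: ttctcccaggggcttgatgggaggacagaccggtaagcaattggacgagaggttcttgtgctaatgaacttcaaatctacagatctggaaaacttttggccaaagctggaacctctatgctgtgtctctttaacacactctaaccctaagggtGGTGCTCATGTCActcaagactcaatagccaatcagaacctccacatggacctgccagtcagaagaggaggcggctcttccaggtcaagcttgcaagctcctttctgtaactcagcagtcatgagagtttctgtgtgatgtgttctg
Zfp935: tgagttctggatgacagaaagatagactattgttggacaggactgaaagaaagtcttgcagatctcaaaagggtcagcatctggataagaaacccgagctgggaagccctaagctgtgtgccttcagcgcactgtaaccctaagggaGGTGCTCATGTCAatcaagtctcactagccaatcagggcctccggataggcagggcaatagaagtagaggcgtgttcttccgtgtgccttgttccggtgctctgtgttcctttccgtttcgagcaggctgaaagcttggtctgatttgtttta
The promoter of Zfp263 holds 20 CpG dinucleotides, against 3 in Zfp931, 3 in Zfp970 and 8 in Zfp935. Those of Zfp931 and Zfp970 were identical at 249 of 261 aligned bases (95.4%), Zfp931 and Zfp935 at 191 of 253 (75.5%), and Zfp970 and Zfp935 at 208 of 268 (77.6%). Their shared run of 13 bases occurs in 38 of the 32851 promoters of the table, in 34 genes. Of these genes 12 have a Zfp symbol and 4 are members, Zfp808, Zfp931, Zfp935 and Zfp971.

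RefSeq gave at least 1 promoter for 88 of the 109 members, 107 promoters in all, and 4 motifs, none of which contains another, were searched there on both strands. The AP-1 motif TGANTCA occurred in 5.61% of member promoters and 7.81% of all promoters, and the cAMP response element TGACGTCA in 3.74% and 1.79%. The STAT motif TTCNNNGAA occurred in 15.9% of member promoters and 8.30% of all, and a 10-base NF-kB motif in 13.1% and 8.46%. These 4 motifs have 0 copies in the 4 promoters shown. Shorter or looser forms of them were not searched, so sites of that kind may be present. The octamer and the shared run were chosen after the sequences had been read. The octamer occurs in 1.87% of member promoters and 1.74% of all, with 2 copies in that of Zfp263.

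Array signal of the members reached from 6.52 to 10.25 on the log2 scale as means over the PBS arrays, with a median of 7.23. Whole arrays had medians of 4.84 to 4.94, and the correlation of replicate arrays across probe sets was 0.994 to 0.997. Signal of different probe sets is not an amount of RNA, so an order of signal among members is no order of RNA amount. Just inside the required level stood Zfp953 at 6.55, Zfp251 at 6.53 and Zfp52 at 6.52, and just outside it Zfp160 at 6.49, Zfp933 at 6.49 and Zfp11 at 6.48. All 8 macrophage markers on the array, of 10 listed, had PBS means of 8.98 to 13.0. Limma called 0 of them at 1 h, 3 at 3 h and 1 for the effect at 3 h minus that at 1 h. Over all genes, 2.8% were called higher and 2.53% lower at 3 h, and 0.523% and 0.507% for the difference of the effects. Among the other genes at the required level, which all 8 markers have, 5.5% were called higher and 6.46% lower at 3 h. Which markers were called, and in which direction, is not given here. The summed log2 values of the 8 markers lay at 87.0 to 87.8 with hepcidin and 86.7 to 87.4 with PBS at 1 h. At 3 h the sums lay at 86.4 to 87.6 with hepcidin and 86.6 to 87.6 with PBS. Opposite changes cancel in a sum, so these ranges do not show that single markers were stable. The markers listed for mast cells, fibroblasts, erythroid cells, lymphocytes, dendritic cells and neutrophils had 0 genes at 6.5 or more, and limma called 0 of them in any comparison.

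The level of most members differed little between the 4 groups. The range of a member's 4 group means had a median of 0.23, was under 0.25 in 60 members, at least 0.5 in 13 and at least 1 in 1, Zfp263 with 1.27. Within the groups, members had median SDs of 0.102 (hepcidin) and 0.0893 (PBS) at 1 h, and of 0.0903 (hepcidin) and 0.0712 (PBS) at 3 h. A member's log2 difference between groups had a median SE of 0.09. Calls below are from limma at a Benjamini-Hochberg adjusted p under 0.05 over all 24675 genes, and a gene is said to have risen or fallen where it passed.

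Zfp263 (Entrez gene 74120) rose with hepcidin at 1 h and again at 3 h. It encodes a factor with SCAN and KRAB domains and C2H2 fingers, as known for its human ortholog. At 1 h it measured 8.42, 8.33 and 8.40 on the log2 scale on the hepcidin arrays, against 7.29, 7.52 and 7.71 on the PBS arrays. Every hepcidin array lay above every PBS array, and the PBS arrays spread more than the hepcidin arrays. The means were 8.38 ± 0.0455 with hepcidin and 7.51 ± 0.208 with PBS (SD, n = 3 each), a log2 difference of 0.88 (SE 0.09) or 1.84-fold, with limma's adjusted p = 0.000342. At 3 h it measured 8.71, 8.86 and 8.77 on the hepcidin arrays, against 7.56, 7.64 and 7.68 on the PBS arrays, again without overlap. The log2 difference was 1.15 (SE 0.09) or 2.21-fold, with limma's adjusted p = 1.02e-05. The effect at 3 h exceeded that at 1 h by 0.27 (SE 0.13), which did not pass (limma's adjusted p = 0.546), and the PBS groups of 3 h and 1 h differed by 0.12 (adjusted p = 0.751). Both calls held whichever of the 12 arrays was left out. In bulk RNA of this kind, more cells that express a gene and more of its RNA per cell cannot be told apart. The gene stands beside Zfp174, the olfactory receptor genes Olfr161 and Olfr15, and Mefv, the pyrin gene, in the RefSeq gene order.

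Zfp263 was the member that rose at 1 h, and 0 members fell, of 109. The risen share was 0.917% of members, against 0.527% of all genes called higher, and for falls 0% of members against 0.0324% of all genes. Without moderated variances the counts were also 1 and 0, and an unadjusted limma p under 0.05 was found for 5 members higher and 8 lower. Together these are 11.9% of members, against 6.82% of all genes and 8.62% of the other 7946 genes at the same required level. Without hepcidin 1 h replicate 1, Zfp760 fell as well. The groups did not overlap in 6 members higher with hepcidin (5.50%, against 6.47% of all genes) and in 10 lower (9.17%, against 5.86% of all genes). Of those other genes, 9.74% were higher without overlap and 6.44% lower.

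The log2 difference at 1 h was below 0 in 66 members (60.6%) and above 0 in 43, with a median of -0.03. The other genes at the same level had a median of 0.01, with 55.1% above 0. This small lean turns with the scaling: with arrays centred on their median 51 members were below 0 and 58 above, and with quantile normalization run again 76 were below and 33 above. Leaving out each array gave 57 to 74 below 0, with the median at -0.01 without hepcidin 1 h replicate 2, and at -0.04 when replicate 1 of either group was left out. Among members that did not pass, Zfp747 had the next largest difference upward, 0.46 (adjusted p = 0.228), and Zfp931 the largest downward, -0.54 (adjusted p = 0.238).

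**Figure D1:**
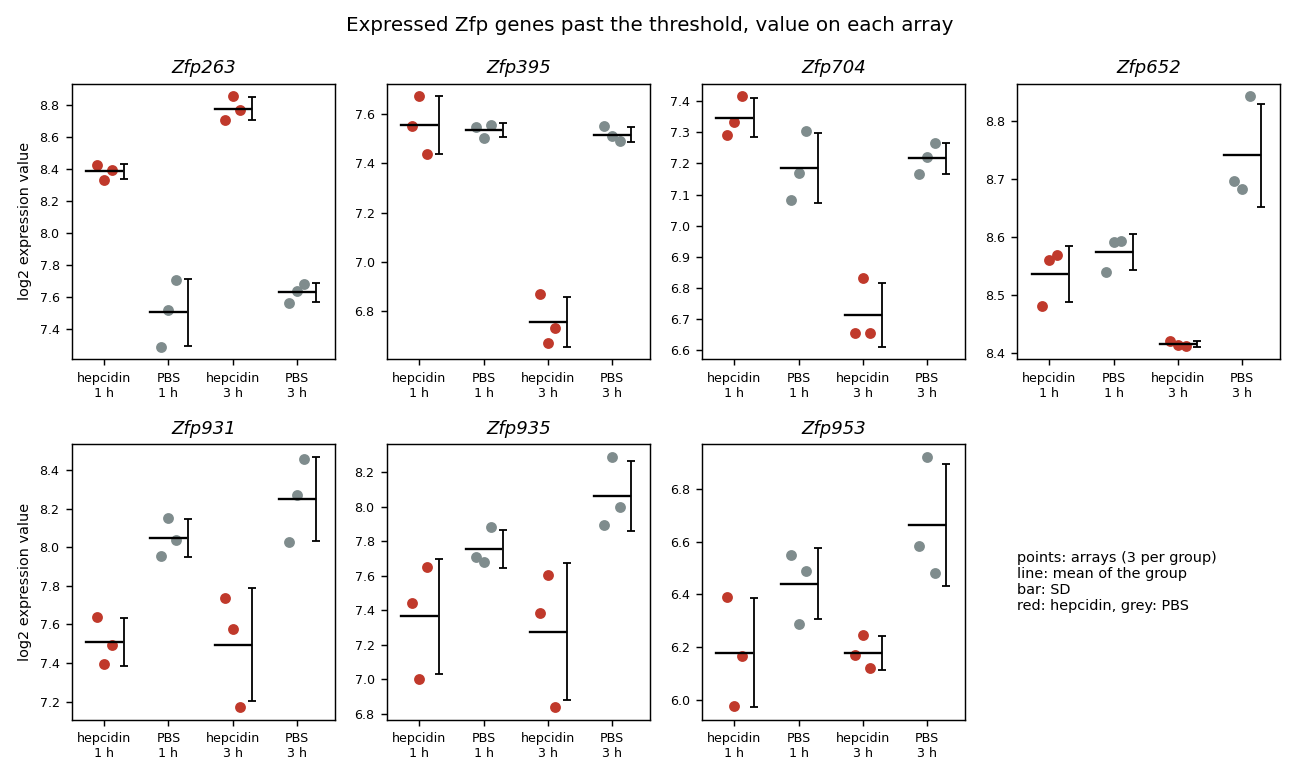
Log2 expression value on each array for the 7 expressed Zfp genes past the threshold, with hepcidin in red left of PBS in grey at 1 h and at 3 h. Points are arrays, 3 per group, lines are group means and bars are SDs, and each gene has its own vertical scale. Zfp263 is higher on every hepcidin array at both times, while Zfp395 and Zfp704 are lower on the hepcidin arrays of 3 h and not on those of 1 h.

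At 3 h Zfp263 was again the member that rose, and 6 members fell, Zfp395, Zfp704, Zfp652, Zfp931, Zfp935 and Zfp953. These were 0.917% and 5.50% of members, against 2.8% of all genes called higher and 2.53% called lower. Among the other genes at the same required level 5.50% rose and 6.46% fell. The share of members that fell lay near that of these genes. They were not matched on signal: their PBS means had a median of 8.14, against 7.23 in members. The groups did not overlap in 15 members higher with hepcidin (13.8%, against 11.8% of all genes) and in 19 lower (17.4%, against 9.9% of all genes). Of the other genes at the same level, 16.8% were higher and 20.3% lower without overlap. An unadjusted p under 0.05 was found for 26 members, 9 higher and 17 lower, which is 23.9% of members, against 16.9% of all genes and 29.2% of the other genes. The members' median difference was -0.02, with 64 below 0 and 45 above, and that of the other genes was also -0.02, with 45.6% above 0. In these data 4 members, Zfp263, Zfp395, Zfp931 and Zfp935, differed at least 1.5-fold at 3 h. That is 3.67% of members, against 2.25% of all genes and 4.25% of the other genes.

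Zfp395 and Zfp704 fell at 3 h and lay near their PBS values at 1 h. They are paralogs: the human counterpart of Zfp395 is known for binding the promoter of the huntingtin gene, and mouse Zfp704 also bears the name Gig1, for glucocorticoid-induced gene. Zfp395 (Entrez gene 380912) measured 6.87, 6.67 and 6.73 on the hepcidin arrays of 3 h, against 7.55, 7.51 and 7.49 on the PBS arrays of 3 h. At 1 h it measured 7.55, 7.67 and 7.44 with hepcidin, against 7.55, 7.50 and 7.55 with PBS. The 3 arrays with hepcidin at 3 h were thus the lowest of all 12, and the groups of 1 h overlapped. The log2 difference was -0.76 (SE 0.08) at 3 h, 1.69-fold lower with hepcidin, and 0.02 (SE 0.08) at 1 h. Limma gave an adjusted p of 5.3e-05 at 3 h and 0.992 at 1 h, and the effect at 3 h minus that at 1 h was -0.78 (SE 0.11, adjusted p = 0.00459).

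Zfp704 (Entrez gene 170753) measured 6.65, 6.83 and 6.65 on the hepcidin arrays of 3 h, against 7.16, 7.22 and 7.27 on the PBS arrays of 3 h. At 1 h it measured 7.29, 7.33 and 7.42 with hepcidin, against 7.08, 7.17 and 7.30 with PBS. At 3 h the groups did not overlap, and at 1 h the lowest hepcidin array lay just under the highest PBS array. The log2 difference was -0.50 (SE 0.08) at 3 h, 1.42-fold lower, and 0.16 (SE 0.08) at 1 h. The effect at 3 h minus that at 1 h was -0.67 (SE 0.11), and limma's adjusted p was 0.00179 at 3 h, 0.75 at 1 h and 0.0129 for the difference. The calls of Zfp395 and Zfp704, at 3 h and for the difference, held whichever array was left out. No other member passed for the difference between the effects, so 0 members (0%, against 0.523% of all genes) were called higher and 2 (1.83%, against 0.507% of all genes) lower. An unadjusted p under 0.05 was found for 3 members higher and 8 lower, which is 10.1% of members, against 10.1% of all genes and 16.6% of the other genes at the same level.

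Zfp652 (Entrez gene 268469), whose human ortholog works with the corepressor CBFA2T3, had a smaller fall. It measured 8.42, 8.41 and 8.41 on the hepcidin arrays of 3 h, against 8.70, 8.68 and 8.84 on the PBS arrays. The hepcidin arrays lay within 0.01 of each other, and PBS replicate 3 stood highest. The log2 difference was -0.32 (SE 0.06), with limma's adjusted p = 0.00984, and it was -0.27 (adjusted p = 0.0544) without PBS 3 h replicate 3. At 1 h the difference was -0.04 (adjusted p = 0.972). With only the hepcidin and PBS arrays of 3 h in the fit, limma's adjusted p became 0.0687 for Zfp652, 0.0512 for Zfp931, 0.0845 for Zfp935 and 0.0814 for Zfp953, while Zfp395 and Zfp704 still passed.

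Zfp931, Zfp935 and Zfp953 belong to the clustered kind: a Zfp gene stood within the 2 protein-coding genes on either side of each. Their individual roles are not given here. Zfp931 (Entrez gene 353208) measured 7.74, 7.58 and 7.17 on the hepcidin arrays of 3 h, against 8.02, 8.27 and 8.46 on the PBS arrays. Its groups did not overlap, and hepcidin replicate 3 stood lowest. The log2 difference was -0.76 (SE 0.14), 1.69-fold lower with hepcidin, with limma's adjusted p = 0.00701. At 1 h it measured 7.64, 7.39 and 7.49 with hepcidin, against 7.95, 8.15 and 8.04 with PBS, also without overlap. That difference of -0.54 (SE 0.14) did not pass (limma's adjusted p = 0.238), and the effects at 3 h and 1 h differed by -0.22 (adjusted p = 0.787). The fall of Zfp931 at 3 h held whichever array was left out, with log2 differences of -0.88 to -0.59.

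Zfp935 (Entrez gene 71508) measured 7.38, 7.61 and 6.84 on the hepcidin arrays of 3 h, against 7.89, 8.29 and 8.00 on the PBS arrays. Again there was no overlap, and hepcidin replicate 3 stood lowest. The log2 difference of -0.78 (SE 0.20) passed at an adjusted p of 0.0365 in limma, and it held in 4 of the 12 fits with an array left out, where the adjusted p reached 0.150. It was lost without hepcidin 1 h replicate 1, replicate 1 or 2 of PBS at 1 h, hepcidin 3 h replicate 1 or 3, or any PBS array of 3 h. Zfp953 (Entrez gene 629016) measured 6.17, 6.25 and 6.12 on the hepcidin arrays of 3 h, against 6.59, 6.92 and 6.48 on the PBS arrays. Its difference of -0.48 (SE 0.13, limma's adjusted p = 0.0455) held in 3 of the 12 fits, which left out hepcidin 1 h replicate 1 or 2 or PBS 3 h replicate 3. Zfp953 also stands next to the required level, with a PBS mean of 6.55, and is no member when the mean over all 12 arrays is used. Probe sequences were not used here, so it was not tested whether close relatives share signal.

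**Figure D2:**
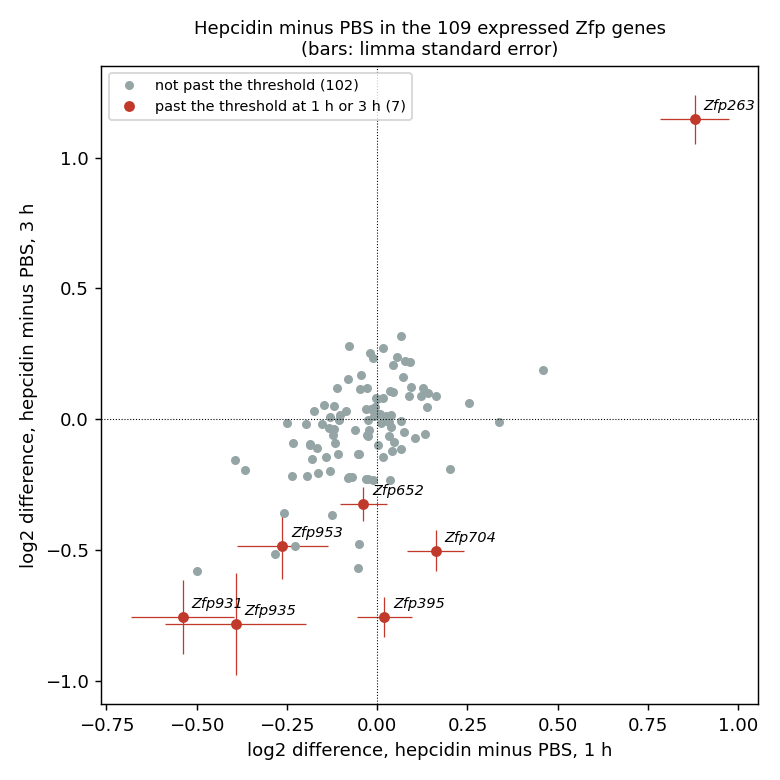
Log2 difference between hepcidin and PBS at 1 h (horizontal) and at 3 h (vertical) for the 109 expressed Zfp genes, with limma standard errors for the 7 genes past the threshold at either time. Zfp263 stands alone at the upper right, Zfp395 and Zfp704 lie low at 3 h and near or above 0 at 1 h, and Zfp931 and Zfp935 lie below 0 at both times.

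Overlap of the groups was read at each time from the arrays of that time alone. The limma fit took its variance from the arrays of both times, and members were chosen on the PBS arrays of both times. Whether samples of the same number share a source is not settled, so the times may not be independent. Every hepcidin array lay under every PBS array at both times in Zfp760, Zfp931, Zfp935, Zfp960 and Zfp971. These 5 genes are 4.59% of members, against 1.19% of all genes and 2.76% of the other genes at the same level, and they make up 50% of the 10 such members at 1 h and 26.3% of the 19 at 3 h. In the other direction Zfp263 was the 1 gene shared by the 6 members at 1 h and the 15 at 3 h, 0.917% of members, against 2.1% of all genes and 4.27% of the other genes. Zfp960 measured 8.39, 7.78 and 8.15 with hepcidin at 1 h, against 8.63, 8.69 and 8.51 with PBS. At 3 h it measured 8.54, 8.36 and 8.00 with hepcidin, against 8.58, 9.04 and 9.03 with PBS. Its differences of -0.50 at 1 h and -0.58 at 3 h did not pass in limma (adjusted p = 0.543 and 0.0811). Zfp971, the neighbour of Zfp931, differed by -0.26 at 1 h and -0.36 at 3 h (adjusted p = 0.672 and 0.0717), and Zfp760 by -0.37 and -0.19 (adjusted p = 0.241 and 0.352). Zfp808, which like Zfp931, Zfp935 and Zfp971 holds the shared promoter run, differed by -0.19 and -0.22 (adjusted p = 0.863 and 0.426). The run was read from genes that fell, and a link between the run and the hepcidin effect was not tested.

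Of the 109 members, 57 stood within 2 protein-coding genes of another Zfp gene and 52 did not. Neighbours were counted by a Zfp symbol alone, so Zfp655, beside Zkscan14, Zkscan5 and Zscan25, was placed apart. At 1 h the median difference was -0.08 in members beside another Zfp gene, with 19 above 0 and 38 below, and -0.01 in the members that stood apart, with 24 above 0 and 28 below. At 3 h the medians were -0.03 beside another Zfp gene and -0.01 apart. Of the members beside another Zfp gene 1 rose and 3 fell at 3 h, and of those apart 0 rose and 3 fell. Over all genes 2.8% rose and 2.53% fell at 3 h, and of the other genes at the required level 5.5% and 6.46%. These counts are a description, and the difference between the classes was not tested.

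Members with a described role mostly stayed close to PBS. Of 26 such genes listed, 24 were found on the array and 20 had the required level. Zfp830 at 6.24, Zfp687 at 5.40, Zfp703 at 6.44 and Zfp57 at 4.34 lay under it, and Zfp91 and Zfp143 were not analysed here. Of the 20, Zfp263 rose at 1 h and at 3 h and limma called 0 others in any comparison. Their differences ran from -0.25 to 0.88 at 1 h and from -0.23 to 1.15 at 3 h.

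Among factors that bind DNA and recruit cofactors, Zfp281, a repressor that works with the NuRD complex, differed by 0.22 (SE 0.09, limma's adjusted p = 0.242) at 3 h. It measured 7.78, 7.82 and 7.90 with hepcidin, against 7.38, 7.65 and 7.79 with PBS, and the groups overlapped. Zfp335, a coregulator of nuclear receptors, measured 7.83, 7.87 and 7.71 with hepcidin at 3 h, against 7.61, 7.55 and 7.54 with PBS. Its groups did not overlap, but the difference of 0.24 (SE 0.07) did not pass (limma's adjusted p = 0.0743). Zfp217, a corepressor that binds CtBP, measured 6.76, 6.90 and 6.77 with hepcidin at 3 h, against 6.94, 7.15 and 7.04 with PBS, a difference of -0.23 (SE 0.08, limma's adjusted p = 0.133). Zfp592, a partner of ZMYND8 and ZNF687, differed by 0.12 at 1 h without overlap (adjusted p = 0.802). Zfp148, which binds GC-rich promoters, differed by -0.17 at 1 h and -0.11 at 3 h, and Zfp384, a nuclear matrix DNA-binding factor, by -0.03 and -0.06. Zfp410, which controls the remodeller gene Chd4, differed by 0.07 at 1 h and -0.11 at 3 h, and Zfp644, a partner of the methyltransferases G9a and GLP, by -0.10 and 0.01. Zfp809, which directs TRIM28 to retroviral DNA, differed by -0.15 at 1 h and -0.02 at 3 h (limma's adjusted p = 0.816 and 0.944).

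Among members that act on RNA, translation or cell division, Zfp598, a ubiquitin ligase that senses collided ribosomes, differed most. It measured 7.25, 7.07 and 7.35 with hepcidin at 3 h, against 6.76, 6.93 and 7.03 with PBS, a difference of 0.32 (SE 0.09). The groups did not overlap, with limma's adjusted p = 0.0782, and the gene passed without hepcidin 3 h replicate 2. Zfp326, which links RNA polymerase II to splicing in the DBIRD complex, measured 6.90, 7.14 and 6.88 with hepcidin at 3 h, against 7.23, 7.19 and 7.19 with PBS (difference -0.23, limma's adjusted p = 0.193). Zfp638, an RNA- and DNA-binding protein that also coactivates C/EBP factors, measured 8.88, 8.46 and 8.53 with hepcidin at 1 h, against 8.89, 8.90 and 8.83 with PBS. Hepcidin replicate 1 overlapped the PBS arrays, and the difference of -0.25 did not pass (limma's adjusted p = 0.649), nor did that of -0.01 at 3 h (adjusted p = 0.963). Zfp207, the mitotic Bub3-binding protein BuGZ, differed by -0.12 at 1 h and -0.04 at 3 h, and Zfp106, an RNA-binding protein, by -0.03 and -0.06. Zfp622, tied to ribosome maturation in human cells, differed by 0.07 at 1 h and -0.01 at 3 h, and Zfp451, a SUMO ligase, by -0.01 and 0.05. Zfp318, which B cells need to make IgD, differed by -0.01 at 1 h and 0.01 at 3 h. Zfp706 differed by 0.03 and -0.06, and Zfp292 by -0.18 and -0.15.

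**Figure D3:**
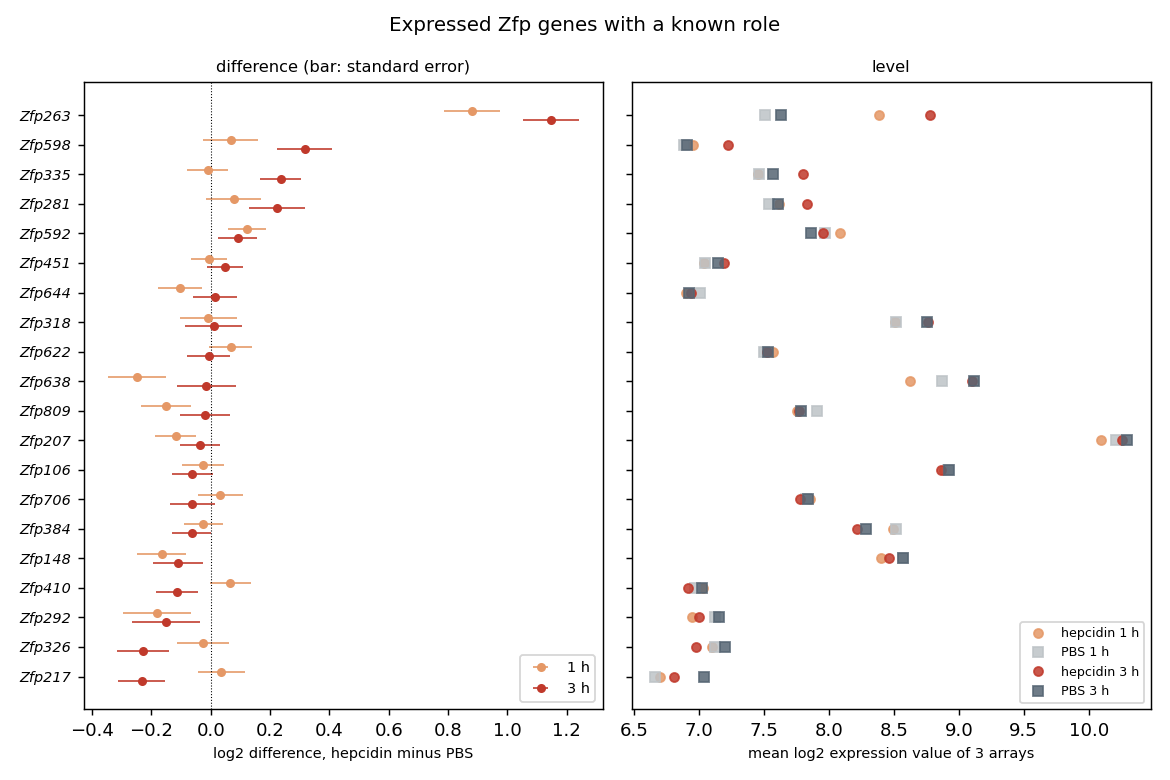
The 20 expressed Zfp genes with a described role, ordered by their difference at 3 h. The left panel gives the log2 difference between hepcidin and PBS at 1 h and 3 h with limma standard errors, the right panel the mean log2 value of the 3 arrays in each group. Zfp263 lies at 0.88 and 1.15, and the other 19 lie between -0.25 and 0.32.

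The members with the brightest probe sets, by PBS mean, were Zfp207 at 10.25, Zfp84 at 9.03, Zfp638 at 8.99, Zfp106 at 8.92, Zfp991 at 8.75, Zfp960 and Zfp871 at 8.74 each, and Zfp652 at 8.66. Of these Zfp652 passed at 3 h. Zfp991 measured 8.39, 8.30 and 8.21 with hepcidin at 3 h, against 8.52, 8.90 and 9.02 with PBS. There was no overlap, and the difference of -0.51 (SE 0.14) stood just outside the threshold (limma's adjusted p = 0.051). Zfp84 differed by 0.00 at 1 h and 0.02 at 3 h, and Zfp871 by -0.15 and 0.06.

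Between the PBS groups, limma called 0 members higher and 0 lower at 3 h against 1 h, where 0.207% of all genes were called higher and 0.243% lower. Without moderated variances the counts were also 0 and 0, and an unadjusted p under 0.05 was found for 21 members higher and 6 lower, which is 24.8% of members, against 10.6% of all genes and 20.6% of the other genes at the same level. The groups did not overlap in 30 members higher in PBS at 3 h (27.5%, against 8.66% of all genes) and in 11 lower (10.1%, against 9.04% of all genes). Of the other genes at the same level, 16.3% were higher and 15.2% lower without overlap. The members' median difference was 0.08, with 75 above 0 and 34 below, against 0.00 in the other genes, of which 51.1% were above 0. The lean was not particular to members: the 231 Zfp genes under the required level had a median of 0.06, with 64.9% above 0. Of related families at the required level, 8 of 8 Zscan and Zkscan genes were above 0, with a median of 0.15. The median was 0.02 in 19 Zbtb genes, with 11 above 0, and 0.03 in 13 Zc3h genes, with 9 above 0. The members' count above 0 was 66 to 77 under every scaling, weighting and left-out array tried. It was lowest, with a median of 0.04, without PBS 1 h replicate 1. The arrays' medians over the members were 7.30, 7.33 and 7.31 in PBS at 3 h, against 7.19, 7.19 and 7.30 in PBS at 1 h, so PBS 1 h replicate 3 lay with the later group. These arrays also serve as the controls of the hepcidin comparisons, and no relation between the comparisons is drawn from them.

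Zfp217 measured 6.94, 7.15 and 7.04 in PBS at 3 h, against 6.54, 6.69 and 6.77 in PBS at 1 h, a difference of 0.38 (SE 0.08, limma's adjusted p = 0.0664). Zfp691 measured 7.32, 7.26 and 7.16 in PBS at 3 h, against 6.74, 6.86 and 6.93 in PBS at 1 h, a difference of 0.40 (limma's adjusted p = 0.071). Neither pair of groups overlapped. The largest difference upward without overlap was that of Zfp617, 0.53 (adjusted p = 0.232), with 8.01, 8.54 and 8.39 in PBS at 3 h, against 7.63, 7.95 and 7.78 in PBS at 1 h. Downward it was that of Zfp628, -0.36 (adjusted p = 0.118), with 6.31, 6.46 and 6.35 in PBS at 3 h, against 6.71, 6.70 and 6.81 in PBS at 1 h. Of the members with a described role, Zfp384 was lower without overlap, with 8.34, 8.23 and 8.29 in PBS at 3 h, against 8.54, 8.51 and 8.51 in PBS at 1 h (difference -0.24, adjusted p = 0.173). Members beside another Zfp gene had a median difference of 0.12, with 42 of 57 above 0, and those apart one of 0.03, with 33 of 52 above 0.

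**Figure D4:**
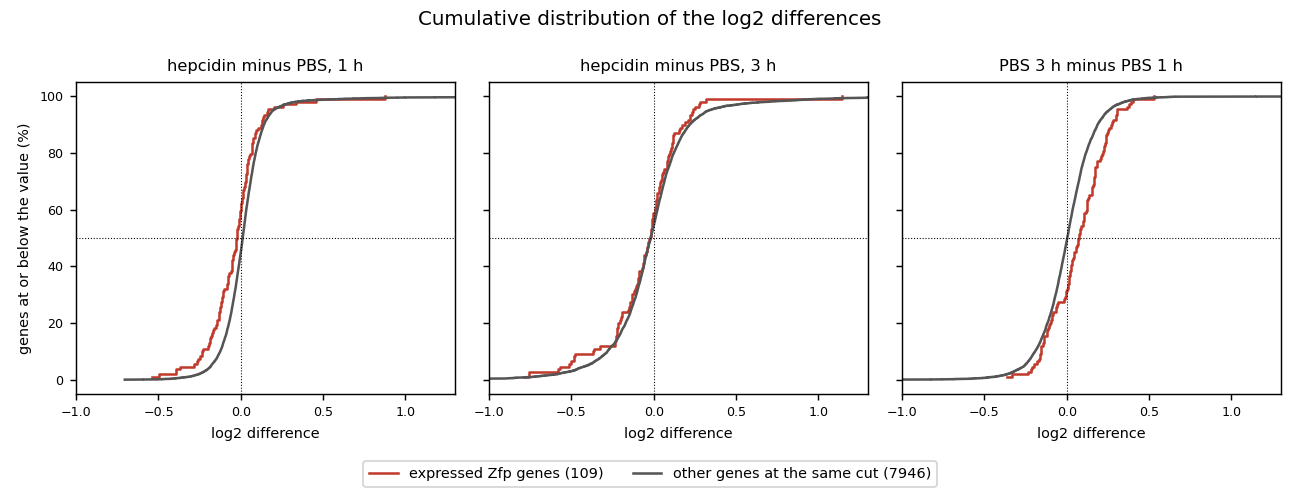
Cumulative share of genes (vertical, percent) at or below each log2 difference (horizontal) for the 109 expressed Zfp genes in red and the 7946 other genes at the same required level in grey, in 3 comparisons. The medians are -0.03 and 0.01 at 1 h, -0.02 and -0.02 at 3 h, and 0.08 and 0.00 for PBS at 3 h minus PBS at 1 h, where the red curve lies to the right. A few grey genes lie beyond the ends of the horizontal axis.

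Under the required level, 5 Zfp genes passed in a comparison. Zfp275, at a PBS mean of 6.46, measured 6.89, 6.94 and 6.89 with hepcidin at 3 h, against 6.29, 6.35 and 6.51 with PBS (difference 0.52, SE 0.09, limma's adjusted p = 0.00409). Zfp608, which represses the Rag genes in thymocytes, measured 5.93, 5.93 and 6.00 with hepcidin at 3 h, against 6.42, 6.81 and 6.65 with PBS (difference -0.67, SE 0.10, limma's adjusted p = 0.0012). In both genes every hepcidin array lay on one side of every PBS array. Zfp811 rose by 0.41 at 3 h (limma's adjusted p = 0.0128), at a PBS mean of 3.34 that lies below the arrays' medians, where background enters the signal, and lost its call when replicate 3 of either group was left out or with only the groups of 3 h in the fit (adjusted p = 0.065).

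Zfp970 measured 5.71, 5.54 and 5.72 with hepcidin at 1 h, against 6.38, 6.40 and 6.45 with PBS, a fall of -0.76 (SE 0.13, limma's adjusted p = 0.0146). At 3 h it measured 6.06, 6.14 and 5.85 with hepcidin, against 5.90, 6.48 and 6.24 with PBS, and the groups overlapped (difference -0.19, adjusted p = 0.506). The call at 1 h was lost without PBS 1 h replicate 1, 2 or 3 or hepcidin 1 h replicate 2, and without moderated variances (adjusted p = 0.113). Zfp759 was the 1 Zfp gene called between the PBS groups, with 6.22, 6.40 and 6.43 at 3 h, against 5.40, 5.61 and 5.88 at 1 h (difference 0.72, SE 0.13, limma's adjusted p = 0.0348). This call held in 5 of 12 fits with an array left out. It was lost without any PBS array of 3 h, replicate 1 or 2 of PBS at 1 h, or replicate 2 or 3 of hepcidin at 1 h. It was also lost without moderated variances (adjusted p = 0.0824), with arrays centred on the median (0.0608) and with only the PBS arrays in the fit (0.104).

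The genes of the TRIM28 corepressor and of heterochromatin, through which KRAB proteins act, were listed apart from the members. Trim28 itself measured 8.86, 8.87 and 8.80 with hepcidin at 1 h, against 8.87, 8.83 and 8.91 with PBS. At 3 h it measured 8.74, 8.67 and 8.67 with hepcidin, against 8.78, 8.67 and 8.71 with PBS. The differences of -0.03 and -0.02 did not pass (limma's adjusted p = 0.985 and 0.906). Of 30 listed genes on the array 0 rose and 0 fell at 1 h, with an unadjusted p under 0.05 in 1 higher and 1 lower. That is 6.67% of the list, against 6.82% of all genes and 8.62% of the other genes at the required level. At 3 h 0 rose and 2 fell, with an unadjusted p under 0.05 in 1 higher and 5 lower. That is 20% of the list, against 16.9% of all genes and 29.2% of the other genes. The fallen share at 3 h was 6.67%, against 2.53% of all genes and 6.46% of the other genes at the required level, which 29 of the 30 listed genes have. Their median difference was -0.02 at 1 h and -0.02 at 3 h, beside 0.00 and 0.02 over all genes tested and 0.01 and -0.02 over the other genes at that level.

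The 2 that fell were Atf7ip, whose product stabilises SETDB1 in the nucleus, and Setdb1. Atf7ip measured 6.86, 6.85 and 6.88 on the hepcidin arrays of 3 h, against 7.31, 7.26 and 7.23 on the PBS arrays, a difference of -0.40 (SE 0.06, limma's adjusted p = 0.00118). At 1 h it measured 7.34, 7.25 and 7.25 with hepcidin, against 7.19, 7.22 and 7.23 with PBS, a difference of 0.07 (adjusted p = 0.903). Its effect at 3 h minus that at 1 h was -0.47 (SE 0.08, limma's adjusted p = 0.018), which was lost without PBS 1 h replicate 2 or PBS 3 h replicate 2. Setdb1 measured 7.83, 7.96 and 7.85 with hepcidin at 3 h, against 8.15, 8.18 and 8.19 with PBS. That difference of -0.29 (SE 0.06, limma's adjusted p = 0.0148) was lost without PBS 3 h replicate 2 or 3 or hepcidin 3 h replicate 1 or 3, and with only the groups of 3 h in the fit (adjusted p = 0.087). At 1 h Setdb1 differed by -0.10 (adjusted p = 0.834).

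Related families at the same required level gave these counts. Of 19 Zbtb genes, factors with a BTB domain, limma called 0 at 1 h and 1 at 3 h, Zbtb7a at 0.31 (adjusted p = 0.0221). That is 5.26% of them, against 2.8% of all genes called higher and 5.5% of the other genes at the same level. Zbtb7a was lost without any PBS array of 3 h or hepcidin 3 h replicate 2 or 3. Of 8 Zscan and Zkscan genes limma called 0 at either time, with an unadjusted p under 0.05 in 1 higher at 1 h and 1 higher at 3 h. Each time that is 12.5% of them, against 6.82% of all genes at 1 h and 16.9% at 3 h. Among the other genes at the same level it was 8.62% at 1 h and 29.2% at 3 h. Of 13 Zc3h genes, CCCH-type RNA-binding proteins unrelated to the C2H2 fold, 2 rose at 1 h. That is 15.4%, against 0.527% of all genes and 1.09% of the other genes at the same level. At 3 h 2 rose (15.4%), against 2.8% of all genes and 5.5% of those other genes. The 1 that fell at 3 h is 7.69%, against 2.53% of all genes and 6.46% of those other genes. Zc3h12a, which encodes the mRNA-cleaving enzyme Regnase-1, differed by 1.31 at 1 h and 0.97 at 3 h, and its relative Zc3h12c, which also rose at 1 h, by 1.76 at 3 h. Zc3h12d fell by 0.46 on the log2 scale at 3 h (limma's adjusted p = 0.0147), a call lost without PBS 3 h replicate 2 or 3 or hepcidin 3 h replicate 1.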

How the data were processed

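Total RNA was labelled with the Affymetrix whole-transcript kit, per the labels' protocols. The authors deposited 1 table of log2 expression values for 25429 probe sets on 12 arrays. RMA and Partek are named, without versions, per the submitters' processing notes, and the values were used as log2 although no label writes the base. The sources used here name no build for the array's annotation. GEO's platform annotation and RefSeq (GRCm38.p6) gave 24675 probe sets a symbol, 1 per gene, and 754 were not named.

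The members, gene lists and naming rule were chosen with earlier results of these data known. The rule named members past the threshold without overlap between groups, the 8 with the highest signal, 3 on either side of the required level, Zfp genes under that level that passed, 26 genes with a described role, and list genes that passed. Genes outside that rule, among them Zfp747, Zfp760, Zfp971, Zfp808, Zfp691, Zfp617 and Zfp628, were chosen after their values were seen. Classes by KRAB domain or finger number were not made, since no protein sequences were used here.

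Differences come from limma 3.58.1 in R 4.3.3 (lmFit, contrasts.fit, eBayes), 4 group means over all 12 arrays, with 8 residual and 4.11 prior degrees of freedom, and no filter on low values. The 4 comparisons were each adjusted by Benjamini and Hochberg over 24675 genes. The members were chosen on the PBS mean, which enters the hepcidin comparisons, so other levels were tried too. The code of the fit was run on simulated data with 200 changed genes, with noise drawn independently for each array. That run checked signs and mean estimates only, and does not bear on how these arrays scatter. Precision is limited by having 3 arrays in a group. Promoters were aligned with Biopython 1.88, and identity was counted over aligned bases only, with bases opposite a gap left out.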

Additional observations from a re-analysis of the deposited data

Results flagged for a closer look

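Zfp395, Zfp704 and Atf7ip had a hepcidin effect at 3 h that differed from that at 1 h by limma's interaction test over all genes. The difference of the effects on the log2 scale was -0.78 for Zfp395 (adjusted p = 0.00459), -0.67 for Zfp704 (adjusted p = 0.0129) and -0.47 for Atf7ip (adjusted p = 0.018). In each gene all 3 hepcidin arrays of 3 h lay under all 3 PBS arrays of 3 h, while at 1 h the mean lay 0.02 to 0.16 above that of PBS. Groups of 3 arrays were not searched for single arrays that stand apart.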

How the results depend on the processing

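Zfp263 risen at 1 h and 3 h, and Zfp395 and Zfp704 fallen at 3 h and in the difference of the effects, kept their calls under every alternative fit and left-out array tried. The count of members that fell at 3 h, 6, was 11 with a trended and robust prior, 11 among genes above the median mean, 11 at an adjusted p under 0.1, 3 with a fold minimum of 1.5, and 2 with only the groups compared. It was 4 to 9 with each array left out, 7 at a required level of 6.0, which admits Zfp608, and 5 at 7.0 or with 6.5 over all 12 or over the 6 hepcidin arrays, where Zfp953 is no member. The count that rose at 3 h, 1, was 2 with the trended and robust prior, 4 without moderated variances, 5 among genes above the median mean, 2 after quantile normalization, 5 at an adjusted p under 0.1, and 1 to 2 with each array left out. A required level of 6.0, or 6.5 over all 12 or over the 6 hepcidin arrays, made it 2 by admitting Zfp275. At 1 h the fallen count, 0, was 1 at a required level of 6.0, which admits Zfp970, and 0 to 1 with each array left out. Between the PBS groups the risen count, 0, was 1 with the replicate number as a block (Zfp217), 2 with the trended and robust prior, 3 among genes above the median mean, 2 after quantile normalization, 3 with array weights and 2 at an adjusted p under 0.1. The fallen count, 0, was 1 among genes above the median mean. The cause of these shifts was not tested, apart from the changed thresholds and members. The levels of 6.0 and 7.0 give 156 and 80 members, and the mean over all 12 arrays replaces 4 of the 109. Deviations from the group means correlated between samples of the same number with r of 0.06 to 0.13 at 1 h, 0.06 to 0.21 at 3 h and 0.04 to 0.25 between the PBS groups (3 pairs each). All of these pairs lay above 0, and not every pair exceeded 0.1. The labels give a shared number only, so whether such samples share a source is not settled. In the other pairs of groups, r between samples of the same number ran from -0.005 to 0.24. As a hint from the data alone, 6 of 6 arrays at 1 h, 6 of 6 at 3 h and 5 of 6 PBS arrays correlated best with their own number. Deviations within a group of 3 sum to 0, so these counts are not of independent arrays. With the replicate block 6 members fell at 3 h, 4 of them also fallen without it, and Zfp935 (adjusted p = 0.063) and Zfp953 (0.0614) lost their calls. Zfp935 was also lost without moderated variances (0.115), and Zfp953 without moderated variances (0.11), with arrays centred on the median (0.0593) and with array weights (0.0682). Of single genes under the alternatives, 3647 values kept their side of the threshold, 62 lost the call and 22 gained it. Of the 3647, 105 changed sign, with differences of at most 0.11 on the log2 scale in the fit reported, and 0 of these had passed in either fit. Signal under the arrays' medians, as in Zfp811, limits what can be read from dim genes.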
